A study of Mus musculus with 28 samples.

Results

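The imprinted genes Meg3, Rian, Mirg, H19, Igf2r, Peg3, Impact, Grb10, Mest and Plagl1 were followed by Bru-seq, a method that labels newly made RNA with 5-bromouridine (BrU) and sequences the labelled fraction. They were chosen by name, with no measured value in the rule, although earlier results of these data were known. All 10 were found among the 24984 gene rows of each deposited table. RNA was detected from 9 of them in mouse embryonic stem cells (mESCs), with mean levels between 0.623 and 4.22 RPKM (reads scaled to gene length and library size) in wild-type (WT) cells at steady state. H19 was the exception, with at most 1 read in any library on the 341 intron bases behind its values. After release from a block of elongation the ratios of whole-gene levels to steady state differed among the 9 genes. At 5 min Rian stood at 1.76-fold of its steady-state level in WT cells and Impact at 0.299-fold, while at 10 min Mirg stood at 2.21-fold and Peg3 at 0.235-fold.

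An imprinted gene is read from only the maternal or only the paternal copy, and the choice is kept by DNA methylation laid down in the germ line at a control region. Meg3, Rian and Mirg are noncoding RNA genes that follow each other on the maternal chromosome, and the long transcripts that cross them carry many small nucleolar RNAs (snoRNAs) and microRNAs (miRNAs). ES cells in culture are known to lose some imprints. Bru-seq reads do not tell the parental copies apart here, so every level is the sum over both.

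The cells were WT and EloA null mESCs, EloA being the largest subunit of the elongation factor Elongin. Each genotype was labelled in 3 conditions. Steady-state cells received 2 mM BrU for 10 min. Recovering cells first received 1 µM flavopiridol (FP), an inhibitor of the kinase P-TEFb that stops productive elongation, for 60 min. After the drug was washed out they were labelled with 2 mM BrU for 5 min or for 10 min. Each of the 6 groups had 2 libraries, 12 in all. The recovery cells were labelled only after the washout, and those of the 5-min libraries for a shorter time than the others. Whether the recovery libraries also hold RNA made before the washout was not tested. All cells were grown with LIF and inhibitors of MEK and GSK3, were taken off embryonic fibroblast feeders before labelling, and are called CCE28 in the growth protocol and CJ7 in the treatment protocol. Whether the null cells are 1 clone is not given in the sources used here. The study calls its Bru-seq experiments independent, and p-values measure only the spread between the 2 libraries of each group. The first steady-state library titled EloA null carries a wild-type genotype tag and was kept in the group its title names.

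Library sizes were inferred from the steps between low RPKM values. They ran from 9857527 to 17272751 reads at 5 min of recovery and from 18820713 to 28547355 in the other conditions. Summed RPKM of 8 ES cell markers lay between 152 and 291 in every library, with all 8 above 0.5 RPKM in each group. Summed RPKM of 10 fibroblast markers was 1.90 to 2.18 in WT and 1.33 to 1.78 in EloA null libraries at steady state. It was 1.77 to 2.06 and 1.11 to 1.68 at 5 min, and 2.43 to 3.82 and 2.15 to 2.92 at 10 min. Col1a1, a fibroblast collagen gene, led these markers with group means of 0.467 to 1.23 RPKM, and the number of the 10 with a mean above 0.5 RPKM was 0 to 2 in a group (Col1a1 and, in EloA null cells at 10 min, Snai2 at 0.530). Lum, another defining marker, was at 0.0308 RPKM or below. Eloa itself was not low in the EloA null libraries, at 1.96 and 1.89 RPKM against 1.18 and 1.16 in WT at steady state. Where the deletion lies in the gene is not given in the sources used here, so these values check no label.

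The lengths behind the values were those of introns, although the study describes counting over whole genes. All 120 member values came out as whole reads, within 0.05 of a read, when the length of a gene was taken as its introns with 1 exon base on each side. That length was 28962 bases for Meg3, 54228 for Rian, 13192 for Mirg, 78466 for Igf2r, 17852 for Peg3, 17285 for Impact, 102028 for Grb10, 12596 for Mest and 36302 for Plagl1. For H19, a short gene with small introns, it was 341 bases.

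On the GRCm38 assembly (mm10), Meg3 lies on chromosome 12 at 109540996 to 109571729 on the plus strand, Rian at 109603945 to 109661716 and Mirg at 109734981 to 109749458. Igf2r lies on chromosome 17 at 12682406 to 12769706 on the minus strand and Grb10 on chromosome 11 at 11930499 to 12037428, also on the minus strand. H19 and Peg3 lie on the minus strand of chromosome 7, at 142575530 to 142578146 and at 6703892 to 6730462. Mest lies on chromosome 6 at 30733506 to 30748466 and Plagl1 on chromosome 10 at 13090832 to 13131694, both on the plus strand.

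The annotation places 60 miRNA genes between the start of Meg3 and the end of Mirg, and the RefSeq sequence table used here holds 57 of their hairpins, with 111 mature miRNAs and 102 different seeds (bases 2 to 8, the stretch that pairs with targets). Of the 9 seeds that recur, 3 are shown here as examples of a seed shared between separate hairpins of the locus. The seeds are in capitals, and each sequence is the RefSeq entry on the plus strand of GRCm38.
mmu-miR-379-5p: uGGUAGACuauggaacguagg
mmu-miR-1193-5p: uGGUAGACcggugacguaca
mmu-miR-379-3p: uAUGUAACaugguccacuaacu
mmu-miR-411-3p: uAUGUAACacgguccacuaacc
mmu-miR-494-5p: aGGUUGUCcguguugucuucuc
mmu-miR-410-5p: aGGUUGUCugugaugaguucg
The hairpins of miR-379, miR-411, miR-494 and miR-1193 lie between Rian and Mirg, and that of miR-410 lies within Mirg. The other miRNAs named in the results come from further up the locus, from Mirg and from an intron of Mest.
mmu-miR-127-3p: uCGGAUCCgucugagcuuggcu
mmu-miR-370-3p: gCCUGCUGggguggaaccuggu
mmu-miR-154-5p: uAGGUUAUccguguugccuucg
mmu-miR-335-5p: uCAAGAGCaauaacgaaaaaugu
The gene of miR-127 lies opposite Rtl1, that of miR-370 within Rian, that of miR-154 within Mirg and that of miR-335 within Mest.

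Zfp57, the zinc finger protein that binds the methylated hexamer TGCCGC at imprinting control regions, was among the most highly transcribed genes examined, at 33.8 and 29.8 RPKM in WT cells at steady state. The hexamer, sought on both strands, was present in 11.6% of the 32851 RefSeq promoter windows (250 bases before to 50 after a start). It was in at least 1 window of 4 of the 8 members looked up that have one: Meg3, Plagl1, Grb10 and Mest. H19 and Impact are not among these 8. Some members have more than 1 window, so this count per gene cannot be set against the share per window. No share for windows of like CG content is given here. The windows of 3 of these are shown with the hexamer in capitals. Meg3 heads the chromosome 12 unit. In WT cells Plagl1 had the highest level at steady state, and Mest had the recovery levels closest to steady state in unscaled RPKM.
Meg3, chr12:109540746-109541045, plus strand: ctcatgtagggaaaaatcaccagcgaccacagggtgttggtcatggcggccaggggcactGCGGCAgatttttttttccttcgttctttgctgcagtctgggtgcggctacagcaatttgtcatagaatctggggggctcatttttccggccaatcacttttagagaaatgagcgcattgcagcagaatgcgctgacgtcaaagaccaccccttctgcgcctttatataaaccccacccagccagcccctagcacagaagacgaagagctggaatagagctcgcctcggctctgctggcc
Plagl1, chr10:13090582-13090881, plus strand: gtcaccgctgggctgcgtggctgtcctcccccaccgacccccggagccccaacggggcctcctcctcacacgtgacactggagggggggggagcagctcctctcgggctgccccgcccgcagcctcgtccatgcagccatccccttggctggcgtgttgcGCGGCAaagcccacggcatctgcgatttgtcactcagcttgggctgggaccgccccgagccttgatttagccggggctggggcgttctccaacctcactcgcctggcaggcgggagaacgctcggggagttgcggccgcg
Mest, chr6:30737800-30738099, plus strand: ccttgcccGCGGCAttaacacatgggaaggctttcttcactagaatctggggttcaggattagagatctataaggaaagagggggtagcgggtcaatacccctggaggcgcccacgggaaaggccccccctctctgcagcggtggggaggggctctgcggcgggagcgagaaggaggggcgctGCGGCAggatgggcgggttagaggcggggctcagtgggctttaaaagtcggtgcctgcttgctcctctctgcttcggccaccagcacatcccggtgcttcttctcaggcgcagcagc
The Meg3 window held 1 copy, Plagl1 held 1 and Mest held 2. CG dinucleotides numbered 13, 26 and 17, against a median of 7 over all windows. The windows of Rian, Mirg, Igf2r and Peg3 held no copy, and that of Rian held 0 CG dinucleotides. A match describes these letters and says nothing about binding in these cells.

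Levels per length at steady state in WT cells were ordered Plagl1, Impact, Rian, Meg3, Mest, Igf2r, Mirg, Grb10, Peg3 and H19. The WT libraries of Meg3 and Mest overlapped, as did those of Igf2r and Mirg and those of Mirg and Grb10, so these neighbours did not differ beyond their spread. Plagl1 was higher than 81.3% of the 10796 genes with a mean above 0.5 RPKM in these libraries, whose median was 1.91 RPKM. Meg3 was higher than 60.1% of them and Peg3 than 6.44%. In EloA null cells Impact and Plagl1 led, with overlapping libraries, at 3.84 ± 0.198 and 3.75 ± 0.0173 RPKM (SD, n = 2).

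**Figure D1:**
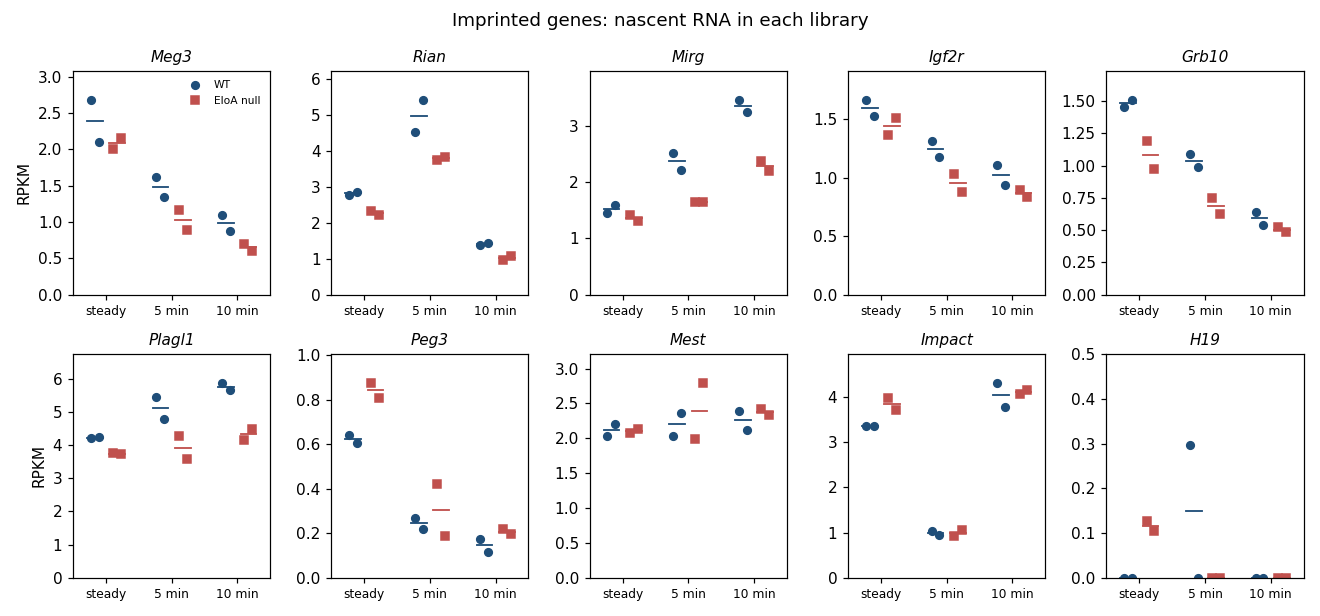
RPKM (vertical axis, starting at 0, a scale of its own per gene) of the 10 genes in each library of the steady-state, 5-min and 10-min conditions; points are libraries (circles WT, squares EloA null) and bars are means of 2. In mean RPKM, Meg3, Igf2r and Grb10 were lower at 5 min than at steady state and lower again at 10 min. Rian peaked at 5 min, Mirg was highest at 10 min, and H19 stayed at 0.297 RPKM or below.

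Meg3, the noncoding RNA gene at the head of the maternal chromosome 12 unit, had 2.68 and 2.10 RPKM in WT and 2.00 and 2.16 in EloA null libraries at steady state. At 5 min it had 1.62 and 1.35 in WT and 1.17 and 0.894 in EloA null libraries, and at 10 min 1.09 and 0.869 against 0.699 and 0.599. In RPKM, every recovery library was below every steady-state library, and every 10-min library was below the 5-min libraries of its own genotype.

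Rian, which carries C/D snoRNAs in its introns, behaved otherwise. It had 2.77 and 2.86 RPKM in WT and 2.32 and 2.21 in EloA null libraries at steady state. At 5 min its values were 4.52 and 5.42 in WT and 3.75 and 3.83 in EloA null libraries, above all 4 steady-state libraries, whereas at 10 min they were 1.37 and 1.43 against 0.966 and 1.07, below all 4.

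Mirg, which carries the distal miRNA cluster, had 1.45 and 1.60 RPKM in WT and 1.42 and 1.31 in EloA null libraries at steady state. At 5 min it had 2.53 and 2.22 in WT and 1.65 in both EloA null libraries, and at 10 min 3.47 and 3.26 against 2.38 and 2.20. Mirg was thus the lowest of the 3 genes at steady state and the highest at 10 min, in both genotypes.

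Ratios of 2 genes of a locus within a library do not depend on how the 3 tables were scaled. They were tested as log2 ratios of RPKM + 0.1, a pseudocount through which scaling enters in part, over 4 recovery and 4 steady-state libraries (exact two-sided permutation test, smallest possible p 0.0286, 10 tests of 5 gene pairs with Benjamini-Hochberg adjustment). The ratio of Rian to Meg3 was 1.02 to 1.36 at steady state and 2.78 to 4.29 at 5 min. The log2 difference was 1.56 (adjusted p = 0.0357 by the exact permutation test, higher in 4 of 4 libraries). At 10 min the ratio was 1.26 to 1.78, a log2 difference of 0.35 that did not pass (adjusted p = 0.0857, exact permutation test). The ratio of Mirg to Meg3 rose from 0.541 to 0.762 at steady state to 1.41 to 1.85 at 5 min and 3.18 to 3.75 at 10 min, with log2 differences of 1.23 and 2.27 (adjusted p = 0.0357 for both, exact permutation tests). The ratio of Mirg to Rian moved the other way at first. It was 0.524 to 0.612 at steady state and 0.410 to 0.560 at 5 min, where the log2 difference of -0.32 did not pass (adjusted p = 0.0635, exact permutation test). At 10 min it was 2.06 to 2.53, a log2 difference of 1.92 (adjusted p = 0.0357, exact permutation test). Without the pseudocount the differences were 1.63 and 0.40 for Rian to Meg3, 1.31 and 2.43 for Mirg to Meg3, and -0.32 and 2.03 for Mirg to Rian, and the same 4 passed (adjusted p = 0.0408, exact permutation tests).

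The small RNA genes between and within the 3 hosts were summed as well, although on few reads. Reads on those within Rian and Mirg may also stand under the host, so their likeness to the host is no separate support. Summed over the 15 miRNA genes that lie 31.0 to 54.4 kb from the start of Meg3, among them that of miR-127, WT libraries held 59 and 71 reads at steady state, 13 and 16 at 5 min and 8 and 8 at 10 min. Per base and library this was 0.515-fold of steady state at 5 min and 0.157-fold at 10 min. EloA null libraries held 46 and 69 reads, then 12 and 14, then 1 and 2, or 0.408-fold and 0.0270-fold. The 7 snoRNA genes within Rian, 95.0 to 115 kb from the start, stood at 1.57-fold in WT at 5 min and 0.532-fold at 10 min. The 30 miRNA genes between Rian and Mirg, from Mir882 on and with that of miR-379 among them, stood at 1.80-fold and 1.59-fold. The 10 miRNA genes within Mirg stood at 1.60-fold and 2.27-fold. In EloA null cells these 3 segments stood at 1.53-fold and 0.500-fold, at 1.87-fold and 1.36-fold, and at 1.03-fold and 1.39-fold. These are descriptions with no test.

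**Figure D2:**
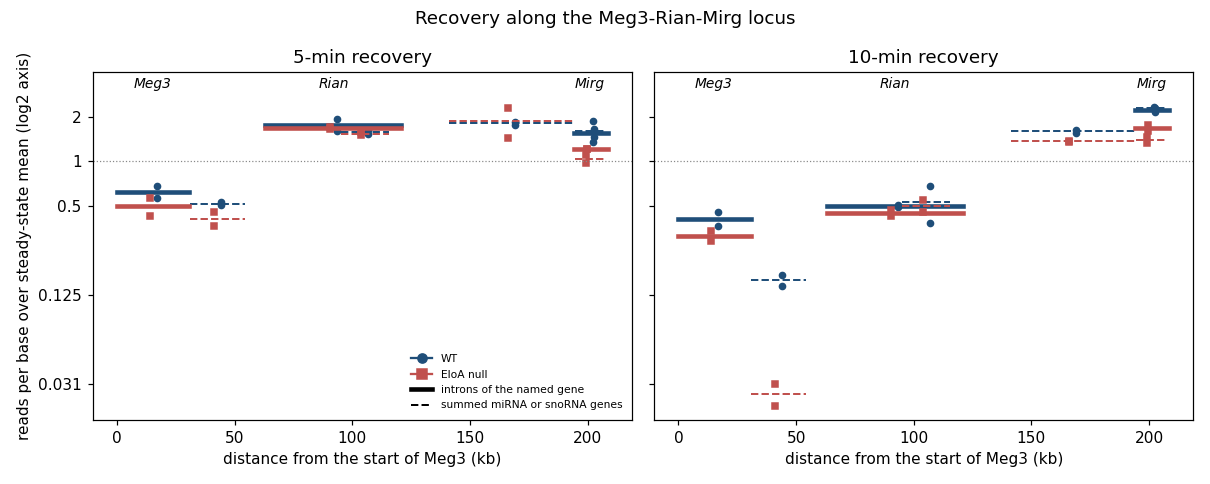
Reads per base and library in the recovery libraries over the steady-state mean of the same genotype (vertical axis, log2 scale) against distance from the start of Meg3 in kb; lines span each segment and mark the mean of 2 libraries, points are libraries, and dashed lines are small RNA genes summed. At 5 min the segments beyond 62.9 kb lie above 1 and those before it below; at 10 min the segments beyond 141 kb lie above 1.

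Igf2r, which encodes the receptor that takes IGF2 to the lysosome, had 1.67 and 1.53 RPKM in WT and 1.37 and 1.51 in EloA null libraries at steady state. It had 1.31 and 1.17 against 1.03 and 0.882 at 5 min, and 1.11 and 0.934 against 0.895 and 0.836 at 10 min. In RPKM, all recovery libraries were below all steady-state libraries. Libraries were also scaled to the median of genes above 0.5 RPKM in all 6 groups. The mean 5-min ratio of Igf2r to steady state was then 0.990 in WT and 0.906 in EloA null cells. The size of the fall at 5 min thus depended on scaling. Airn, the noncoding antisense RNA that silences Igf2r on the paternal copy, overlaps it over 28396 bases. Airn had 0.623 and 0.556 RPKM in WT libraries at steady state and 0.782 and 0.707 at 5 min. In EloA null libraries it had 0.464 and 0.474 at steady state and 0.582 and 0.434 at 5 min, on both sides of the steady-state values. The ratio of Airn to Igf2r was 0.314 to 0.374 at steady state and 0.492 to 0.603 at 5 min, a log2 difference of 0.63 (adjusted p = 0.0357, exact permutation test). At 10 min it was 0.348 to 0.440. That log2 difference was 0.18 with the pseudocount of 0.1 RPKM (adjusted p = 0.0357) and 0.12 without it (adjusted p = 0.257, exact permutation tests), and it also missed the threshold without the first WT 10-min library, at 0.13.

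The stretch shared by Airn and Igf2r includes the start of Igf2r, and reads on it may stand under both genes. The ratio test therefore cannot tell a change in Airn from a change in Igf2r on that stretch. Airn's reads came to 47.2 to 90.7% of Igf2r's. The counts do not appear to separate strands, since the reads of Kcnq1ot1, which lies within Kcnq1 on the opposite strand, came to 95.1 to 99.4% of those of Kcnq1. How much of the Igf2r level is Airn, and how much of the Airn level is Igf2r, was not tested. Hymai, a noncoding RNA within Plagl1, likewise had 13.1 to 39.5% as many reads as Plagl1, and Rtl1, opposite Meg3, had 6.72 to 21.0% as many as Meg3.

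Grb10, an adaptor that dampens insulin and IGF1 receptor signalling, had 1.45 and 1.51 RPKM in WT and 1.19 and 0.975 in EloA null libraries at steady state. It had 1.09 and 0.985 against 0.751 and 0.628 at 5 min, and 0.642 and 0.542 against 0.522 and 0.483 at 10 min. In RPKM the libraries of each genotype were lower at each later condition, without overlap. With the median scaling given for Igf2r, the mean 5-min ratio of Grb10 was 0.890 in WT and 0.871 in EloA null cells. H19, the growth-restraining noncoding RNA that hosts miR-675, had 1 read in each EloA null steady-state library, 1 read in the first WT library at 5 min and 0 in the other 9. On 341 bases, 3 reads correspond to 0.308 to 0.892 RPKM, so H19 levels below that could not be seen at this depth. Nearly all of the 2288 exon bases of H19 lie outside that length, and RNA from them may not be in these values. The limit covers counting error only.

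Peg3, a zinc finger gene read from the paternal copy, was the weakest of the 9 detected genes. It had 0.642 and 0.604 RPKM in WT and 0.874 and 0.810 in EloA null libraries at steady state. It had 0.267 and 0.221 against 0.423 and 0.188 at 5 min and 0.176 and 0.117 against 0.219 and 0.196 at 10 min, on 46 to 100 reads. Every recovery library was below every steady-state library. Its neighbour Usp29, which starts close to Peg3 and runs the other way, had 0.0116 to 0.0175 RPKM at steady state, 0.0283 to 0.0414 at 5 min and 0.00554 to 0.00633 at 10 min. The ratio of Usp29 to Peg3 was 0.0188 to 0.0227 at steady state, 0.0977 to 0.219 at 5 min and 0.0289 to 0.0474 at 10 min. With the pseudocount of 0.1 RPKM, which is larger than any Usp29 value, the log2 differences were 1.41 and 1.47. Without it they were 2.71 and 0.75 (adjusted p = 0.0357 with it and 0.0408 without it for both times, exact permutation tests).

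Impact, which restrains the amino acid sensor GCN2, had the lowest ratio to steady state at 5 min of the 9 genes. In RPKM it was above steady state at 10 min. It had 3.35 RPKM in both WT and 3.98 and 3.70 in EloA null libraries at steady state. At 5 min it had 1.04 and 0.955 against 0.932 and 1.06, and at 10 min 4.30 and 3.76 against 4.07 and 4.14. All 10-min libraries were above the steady-state libraries of their genotype in RPKM. This depended on scaling. With libraries scaled to the median of genes above 0.5 RPKM in all 6 groups, the mean 10-min ratio was 0.914 in WT and 0.781 in EloA null cells.

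Mest, which encodes a protein of the hydrolase fold family and hosts miR-335, had 2.03 and 2.21 RPKM in WT and 2.08 and 2.13 in EloA null libraries at steady state, 2.04 and 2.36 against 1.99 and 2.79 at 5 min, and 2.39 and 2.12 against 2.42 and 2.34 at 10 min. The libraries of the 3 WT conditions overlapped. Mir335 itself was listed at means of 5.06, 4.08 and 4.25 RPKM in WT at the 3 conditions.

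Plagl1, a zinc finger transcription factor that halts the cell cycle, had 4.20 and 4.25 RPKM in WT and 3.76 and 3.73 in EloA null libraries at steady state. It had 5.45 and 4.78 against 4.27 and 3.57 at 5 min and 5.86 and 5.66 against 4.17 and 4.49 at 10 min. In WT every recovery library was above both steady-state libraries, while in EloA null cells this held at 10 min and the 5-min libraries overlapped steady state. Hymai went from a mean of 4.05 RPKM in WT at steady state to 12.4 at 5 min and 12.6 at 10 min.

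Recovery was set against that of all genes above 0.5 RPKM at steady state, with the caution that each condition has its own table and the scaling between the tables is not given in the sources used here. Recovery therefore has no test of its own. Libraries were also scaled to the median of the 7342 genes above 0.5 RPKM in all 6 groups. The 10-min ratios in WT were then 0.914 for Impact, 0.806 for Mest and 1.04 for Plagl1. In EloA null cells they were 0.781, 0.824 and 0.844. Standing above steady state thus depended on the scaling for Impact and Mest in both genotypes and for Plagl1 in EloA null cells. In bulk RNA, fewer transcribing cells and less RNA per cell cannot be told apart. The median gene stood at 0.631-fold of steady state in WT and 0.560-fold in EloA null cells at 5 min, and at 1.03-fold and 1.02-fold at 10 min. Of the 9 detected members, Rian, Mirg, Igf2r, Grb10, Mest and Plagl1 (6) were above that median in both genotypes at 5 min, and Mirg, Impact, Mest and Plagl1 (4) at 10 min. Gene length separated the genes in general. In WT the median at 10 min was 1.23-fold for genes under 10 kb, 1.53-fold for 10 to 30 kb, 0.858-fold for 30 to 60 kb and 0.626-fold for genes over 60 kb. At 5 min these medians were 0.794-fold, 0.575-fold, 0.453-fold and 0.798-fold. The study estimates that the front of released polymerase was still well short of the ends of the longest genes at both times. Values over whole genes therefore also cover stretches beyond that front, and what they hold there was not tested.

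Within these length classes the members stood at different places. In WT at 5 min Rian, at 1.76 ± 0.226 (SD, n = 2), was above 97.9% of the 30 to 60 kb genes, whose median was 0.453-fold, and Plagl1, at 1.21 ± 0.111, was above 93.9%. Among all genes above 0.5 RPKM at steady state, Rian was above 90.8% and Plagl1 above 79.5%. Rian and Mirg are classed by their annotated span and not by distance from the start of Meg3. Mirg, at 1.56 ± 0.144, was above 89.9% of the 10 to 30 kb genes, whose median was 0.575-fold. Impact, at 0.299 ± 0.0190, was above 22.8% of the 30 to 60 kb genes. At 10 min Peg3, at 0.235 ± 0.0667, was above only 1.69% of its class and Meg3, at 0.410 ± 0.0659, above 11.1%, while Mirg, at 2.21 ± 0.0973, was above 73.5% and Plagl1, at 1.37 ± 0.0337, above 79.6%. Igf2r stayed near the middle of the genes over 60 kb, above 48.6% of them at 5 min and 51.7% at 10 min, and Grb10 was above 42.1% and 15.2%. Mest, at 1.04 ± 0.108 and 1.06 ± 0.0905, was above 77.5% of its class at 5 min and 30.3% at 10 min.

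In EloA null cells at 10 min Peg3 stood at 0.247 ± 0.0190, Meg3 at 0.312 ± 0.0340, Rian at 0.449 ± 0.0315, Mirg at 1.67 ± 0.0941 and Plagl1 at 1.16 ± 0.0605. Mirg was then above 55.5% of its class and Peg3 above 2.13%.

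**Figure D3:**
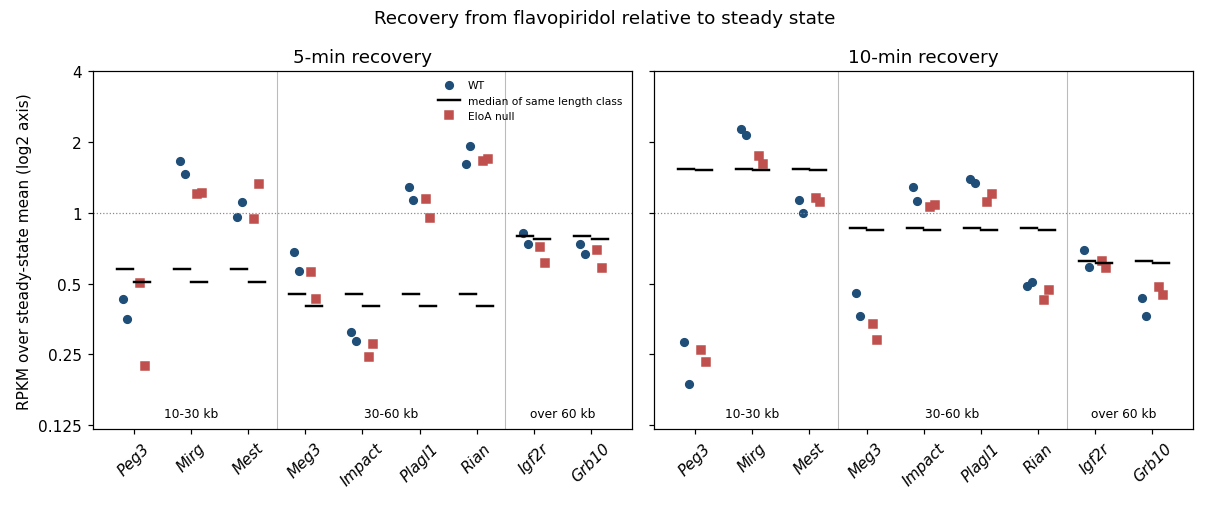
RPKM at 5 min (left) and 10 min (right) of recovery over the steady-state mean of the same genotype (vertical axis, log2 scale) for 9 genes ordered by length class; points are libraries (circles WT, squares EloA null) and black bars are the median of all genes of the same length class and genotype. Rian and Plagl1 lie above their class at 5 min, and Peg3, Meg3 and Rian lie below theirs at 10 min.

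The genotypes were compared within each condition by limma on log2(RPKM + 0.1), over genes with a mean above 0.5 RPKM in either genotype. No gene passed an adjusted p of 0.05 in any condition, so the share called was 0.0% of 11347 genes at steady state, 0.0% of 8985 at 5 min and 0.0% of 10241 at 10 min. At an unadjusted p under 0.05 there were 2083, 846 and 2098 genes, and limma-voom on reads recovered from the RPKM called 1472, 259 and 894. No member passed in the limma fit on log2(RPKM + 0.1). Of the members, 9 were testable at steady state and 8 in recovery, where Peg3 was below the limit.

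At an unadjusted p under 0.05 stood 3 of 9 members at steady state, against 18.4% of all genes. Rian and Grb10 were on the lower side, against 4.22%, and Peg3 on the higher, against 14.1%. At 5 min Meg3, Mirg and Grb10, 3 of 8, stood there against 9.42%, all lower (4.87% of all genes) and none higher (4.54%). At 10 min Meg3, Rian, Mirg and Plagl1, 4 of 8, stood there against 20.5%, all lower (5.25%) and none higher (15.2%). By size, the EloA null mean was over 1.5-fold below WT for 0 members at steady state (2.1% of all genes), for Grb10 at 5 min (6.72%) and for Meg3 at 10 min (3.01%). No member was over 1.5-fold higher, against 7.21%, 5.4% and 9.41%.

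Meg3, Rian, Mirg, Igf2r, Grb10 and Plagl1 had lower means in EloA null cells in all 3 conditions. At 10 min the log2 fold change was -0.54 ± 0.10 (SE) for Mirg (limma adjusted p = 0.131), -0.52 ± 0.17 for Meg3 (0.214), -0.43 ± 0.12 for Rian (0.176) and -0.41 ± 0.096 for Plagl1 (0.159). Under limma-voom on the recovered reads these 4 of 8 passed, with adjusted p of 0.0249, 0.0458, 0.0319 and 0.0198, where that fit called 8.76% of all genes (2.4% lower and 6.36% higher). At steady state Grb10 had a log2 fold change of -0.43 ± 0.12 (limma adjusted p = 0.187), Rian of -0.30 ± 0.080 (0.183) and Peg3 of 0.38 ± 0.11 (0.203), and limma-voom gave 0.000453, 0.0222 and 0.0414, where it called 13% of all genes (3.36% lower and 9.65% higher). At 5 min Grb10 had -0.53 ± 0.18 (limma adjusted p = 0.499) and Mirg -0.50 ± 0.15 (0.471), and limma-voom passed no member, with 2.89% of all genes called (1.28% lower and 1.61% higher). Impact and Mest differed little in recovery, with log2 fold changes between -0.0048 and 0.098. With libraries centred on their median the sign turned for Impact at both times and for Mest at 10 min.

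Without overlap between libraries, EloA null values lay below WT values for 5 of 9 members at steady state, against 21.4% of all genes tested, for 6 of 8 at 5 min, against 25.0%, and for 6 of 8 at 10 min, against 21.8%. They lay above WT for Peg3 and Impact at steady state, against 32.0% of all genes, and for no member at 5 min (15.4%) or 10 min (33.5%). Long genes were more often on the lower side in general, with 40.8% of genes over 60 kb and 35.8% of genes of 30 to 60 kb at steady state, and 41.6% and 36.5% at 10 min, against 7.96% and 7.79% of genes under 10 kb. The median log2 fold change of the members was -0.15, -0.38 and -0.31 in the 3 conditions, beside 0.03, -0.06 and 0.06 over all genes tested. The members are not independent of each other, since 3 belong to 1 locus. The fibroblast markers given above were also lower in EloA null libraries at steady state and at 5 min, and their part in these differences was not tested.

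**Figure D4:**
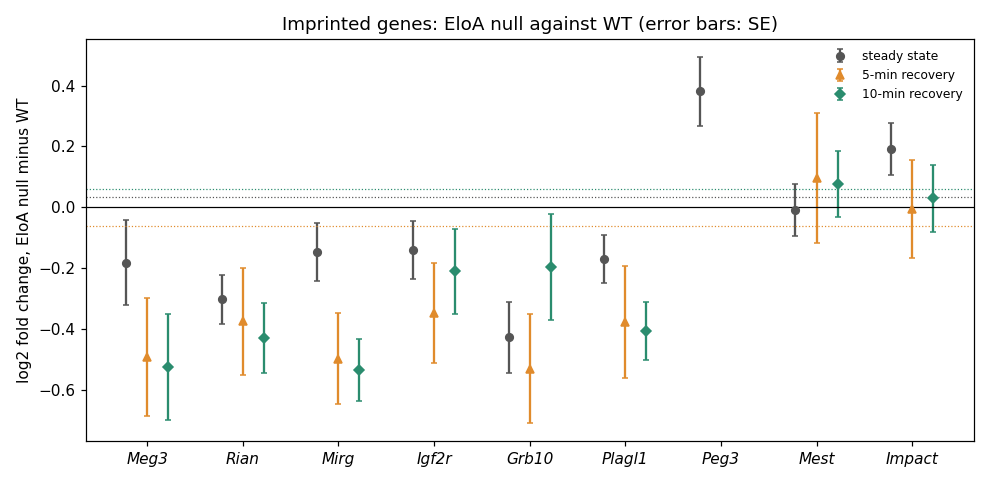
Log2 fold change of EloA null minus WT (vertical axis) for 9 genes at steady state (circles), 5 min (triangles) and 10 min (diamonds), from limma on log2(RPKM + 0.1), with SE bars from 2 libraries per group and dotted lines at the median of all genes in each condition. Meg3, Rian, Mirg, Igf2r, Grb10 and Plagl1 lie below 0 throughout, and none passes the adjusted p of 0.05.

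Whether the genotype difference itself changed during recovery was tested by an interaction term over all 12 libraries. It called 12 genes (0.1% of 11975) at 5 min and 1 gene (0.00835%) at 10 min, none of them a member. At an unadjusted p under 0.05 the term reached 6.51% and 1.64% of all genes. The median of all genes shifted by -0.11 on the log2 scale in the 5-min comparison. The largest member values were those of Mirg, with -0.35 ± 0.14 at 5 min (limma adjusted p = 0.709) and -0.39 ± 0.14 at 10 min (limma adjusted p = 1).

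Another 69 known imprinted genes were listed by locus, of which 67 were in the tables and 38 had a mean above 0.5 RPKM at steady state in either genotype. None passed in either direction in any condition. At steady state 13 of 38 were below and 9 of 38 above WT without overlap, which at 34.2% and 23.7% stood beside 21.4% and 32.0% of all genes. At 5 min 11 of 36 (30.6%) were below and 6 (16.7%) above, beside 25.0% and 15.4%. At 10 min 5 of 31 (16.1%) were below and 10 (32.3%) above, beside 21.8% and 33.5%. The highest were Cobl, which neighbours Grb10, at a mean of 20.6 RPKM in WT, Nespas, the antisense RNA of the Gnas locus, at 16.6, and Mcts2 at 7.85. Ago2 (7.49), Peg10 (5.88), Kcnq1ot1 (5.67), Cd81 (5.16), Zrsr1 (4.85), Nap1l4 (4.25), Hymai (4.05) and Zdbf2 (4.03) were above 4 RPKM as well. Those between 1 and 4 RPKM in WT were H13, Gnas, Slc38a4, Gpr1, Snurf, Ube3a, Rtl1, Tssc4, Blcap, Commd1, Kcnq1, Ddc, Chrac1, Ppp1r9a, Mkrn3, Zim2 and Nnat. The reads of Kcnq1ot1 on the opposite strand came to 95.1 to 99.4% of those of Kcnq1. How much of the Kcnq1 and Rtl1 values is RNA of the opposite strand was not tested. Copg2, Peg13, Sgce, Nap1l5, Herc3, Inpp5f, Dio3os, Airn, Trappc9 and, in EloA null cells, Dio3 were lower.

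The values listed for partner genes of the members ranged widely. Igf2, read from the same domain as H19, had means of 0.0127 RPKM in WT and 0.0266 in EloA null cells at steady state. Dlk1, the paternally read neighbour of Meg3, had 0.0195 and 0.0397, on at most 10 reads a library at steady state. Of the other paternally read genes of that locus, Rtl1 was listed at 1.99 and 1.63 and Dio3 at 0.392 and 0.866. Rtl1 lies opposite the maternal unit, and the counts do not appear to separate strands. How much of its value is RNA of the maternal unit was not tested. Peg10, a retrotransposon-derived gene, stood at 0.149-fold of steady state at 5 min and 0.391-fold at 10 min in WT. Mkrn3, a ring finger gene, had means of 0.689 RPKM in WT and 1.46 in EloA null cells at 5 min (log2 fold change 0.99 ± 0.20, limma adjusted p = 0.266).

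Genes that keep imprints were transcribed. Of 10 listed, 9 had means above 0.5 RPKM in every group and Dppa3 was at 0.167 or below. Zfp57 had a mean of 31.8 RPKM in WT at steady state, Trim28, its corepressor, 27.3, Ctcf, the insulator protein, 9.07, Setdb1, a histone H3K9 methyltransferase, 7.96, and Uhrf1 and Dnmt1, which copy DNA methylation, 6.50 and 5.13. None passed in any condition, and 3 of 9 were above and 2 of 9 below WT without overlap at steady state, or 33.3% and 22.2% beside 32.0% and 21.4% of all genes.

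Over the 12 libraries, patterns were compared by Pearson's r of log2(RPKM + 0.1) among 7342 genes above 0.5 RPKM in all groups, as a description with no test, since the libraries share condition and depth. Meg3 was most like Igf2r (r = 0.983), Osbpl9 (0.979) and 4933427D14Rik (0.978). Rian was most like Spag9 (0.994), Eml5 (0.992) and Ambra1 (0.991), each over 60 kb long. Mirg was most like Lox (0.951), Pbdc1 (0.950) and AW146154 (0.949), and Impact like Pbk (0.996), Mcm5 (0.996) and Lonrf1 (0.995). Igf2r followed Sufu (0.988), Cep135 (0.988) and Meg3, and Grb10 followed Zfp202 (0.979), 9930021J03Rik (0.973) and Slc1a1 (0.971). Plagl1 and Mest had weaker matches, led by 2900055J20Rik (0.903), Zfp788 (0.896) and Rrm2b (0.893), and by Zfp951 (0.858), Dppa5a (0.784) and Ccdc71 (0.775). Between members of the chromosome 12 locus r was 0.502 for Meg3 and Rian, -0.60 for Meg3 and Mirg and -0.38 for Rian and Mirg.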

How the data were processed

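New RNA was measured in 12 Bru-seq libraries of mouse ES cells. The authors aligned paired-end reads to mm10 (Bowtie2 2.3.4.3 in the submitters' notes), kept unique alignments, counted them over whole RefSeq genes with featureCounts 1.6.1 and deposited RPKM values made with edgeR, in a table per condition. How the tables were scaled to each other is not given in the sources used here, so each was treated as normalized separately. The deposited means were not used, 0 value columns were left out, and 16 samples of other assays are not analysed here. The strand setting of the counting is not given in the sources used here. With the summed intron length as gene length, recovered read counts were whole for 96.5 to 96.8% of genes with introns above 0.5 RPKM, against 5.56 to 10.1% with lengths 37 bases too long.

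Genotypes were compared within a table by limma 3.58.1 (R 4.3.3) on log2(RPKM + 0.1), for genes with a mean above 0.5 RPKM in either genotype, with Benjamini-Hochberg adjustment over all genes tested. Fold changes on this scale understate those of low genes. Ratios of 2 genes were tested by exact permutation (scipy 1.17.1). Names were matched to RefSeq for 24420 genes by symbol and 423 by older symbol, and 139 did not match. The limma step was tested on simulated data. The members and gene lists were chosen with earlier results of these data known. Named are all members, listed genes above 0.5 RPKM at steady state or at a member's locus, and the 3 genes most like each member. Other pseudocounts, filters, scalings, library sets and a replicate block were tried.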

Additional observations from a re-analysis of the deposited data

Results flagged for a closer look

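Rian was on opposite sides of its steady-state level at the 2 recovery times in every library. In WT cells the mean ratio was 1.76 at 5 min and 0.498 at 10 min, and in EloA null cells it was 1.68 and 0.449. Rian was not alone in this. Among the other listed imprinted genes, Sgce (1.53 and 0.406), Ppp1r9a (1.69 and 0.604) and Cobl (1.69 and 0.771) also changed sides in WT cells. Others did not, such as Hymai (3.05 and 3.11) and Peg10 (0.149 and 0.391). No share over all genes is given here. For Rian the difference between the 2 times was not tested, since the scaling between the tables is not given in the sources used here. Groups of 2 libraries are too small to look for a single library apart from its group.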

How the results depend on the processing

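No gene passed at steady state, at 5 min or at 10 min, and these counts depended on the fit. With all 12 libraries sharing the spread, 132, 532 and 264 genes passed. With limma-voom on recovered reads, chosen after seeing the data, 1472, 259 and 894 passed. At 5 min 2 passed with a pseudocount of 0.5, and at 10 min 5 passed with 0.5, 5 with 1 and 12 with median centring. Without 1 library the counts were 0 to 0, 0 to 60 and 0 to 33. With the replicate number as a block, 0, 128 and 0 passed, and the interaction at 5 min called 2 genes. Deviations of same-numbered libraries correlated at 0.101, 0.119 and 0.103, and with 2 pairs the pairing is not established. The interaction called 12 genes at 5 min (3 with a pseudocount of 1, 56 without a filter, 2 to 28 without 1 library) and 1 at 10 min (4, 27 and 1 to 4). Members kept their direction in 171 of 175 values under other settings and in 92 of 100 without 1 library. Of the members, Mirg alone passed with the shared spread, at 5 and 10 min (adjusted p = 0.028 and 0.0319, limma).

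Reversals of sign touched log2 differences that did not pass. Centring gave Impact 0.061 at 5 min and -0.067 at 10 min, Mest -0.021 at 10 min, and interactions at 5 min of 0.081 for Rian and 0.051 for Grb10. Limma-voom gave Impact 0.0032 at 5 min. Without 1 library Mest ranged from -0.067 to 0.049 at steady state, -0.14 to 0.33 at 5 min and -0.0077 to 0.16 at 10 min, and Impact from -0.090 to 0.080 and -0.065 to 0.12 in recovery. The interaction at 5 min then ranged from -0.20 to 0.057 for Rian, -0.63 to 0.23 for Peg3, -0.23 to 0.027 for Grb10 and -0.13 to 0.34 for Mest, and at 10 min from -0.18 to 0.040 for Igf2r and -0.22 to 0.12 for Peg3.

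Of the ratio tests, permuting within genotype left the 8 called differences (1.56, 1.23, 2.27, 1.92, 1.41, 1.47, 0.63 and 0.18) short of the threshold (adjusted p = 0.0694, exact permutation), since the smallest p it allows is 0.0556. Airn to Igf2r at 10 min was 0.12 without a pseudocount and 0.13 to 0.21 without 1 library. It missed the threshold without the second EloA null steady-state library (0.14) or the first WT 10-min library (0.13). Mirg to Rian at 5 min passed with a pseudocount of 1 (-0.31) and without the first WT 5-min library, in a range of -0.42 to -0.27. The counts of members above the median were 6 to 6 at 5 min and 3 to 4 at 10 min. The causes were not tested.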
